A study of Homo sapiens with 12 samples.

Results

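The 10 genes described here encode glucose transporters and enzymes of glycolysis: SLC2A1, SLC2A3, HK2, PFKP, ALDOA, GAPDH, PGK1, ENO1, PKM and LDHA. They were chosen by gene name from a raw count table of 64253 genes, and all 10 were among the 19460 genes with enough reads to be tested. The counts come from JEKO-1, an established human mantle cell lymphoma line, a cancer of B cells, grown in culture for 48 h under 4 conditions with 3 libraries each. Its question, by the title, was what salicylates add to the action of a CRM1 inhibitor on tumour cells. The groups were cells given KPT-330 together with choline salicylate (KPT-330+CS), KPT-330 alone, choline salicylate alone (CS) and the vehicle DMSO. KPT-330, also called selinexor, inhibits XPO1 (CRM1), the receptor that carries many proteins and some RNAs out of the nucleus. Drug concentrations for these particular cultures were not given with the data. A single cell line was used, so the results hold for 1 genetic background.

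Glycolysis breaks glucose down to pyruvate in the cytosol and yields ATP, NADH and precursors for nucleotides, lipids and amino acids. Glucose enters through SLC2A transporters, is trapped by hexokinase, is committed at phosphofructokinase and is carried by aldolase and the enzymes after it to pyruvate, which lactate dehydrogenase can turn into lactate. Many lymphoma cells run this route fast even with oxygen present, and in many human cell types its genes are known targets of the transcription factors MYC and HIF1.

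Total counts lay between 35325563 and 59490178 per library. Within-group scatter (biological coefficient of variation) was 10.8% in KPT-330+CS, 2.88% in KPT-330, 11.9% in CS and 15.5% in DMSO. Libraries also differed in how log2 CPM changed with the GC content of a gene, a slope that ran between -0.15 and 0.13 per 10 GC points in KPT-330+CS, 0.20 and 0.23 in KPT-330, -0.23 and 0.06 in CS, and -0.31 and 0.09 in DMSO. All 8 B cell and mantle cell lymphoma markers checked were present, at a summed 2166 to 3128 CPM that was higher in every KPT-330+CS and KPT-330 library than in any CS or DMSO library, while markers of T cells, myeloid cells, epithelium, fibroblasts and red cells summed to at most 4.15 CPM in any library. The endothelial list summed to 14.6 to 37.9 CPM, nearly all from PECAM1, which lymphoid cells also express, while VWF and CDH5 reached at most 0.218 and 0.107 CPM. XPO1, the target of the drug, was higher with KPT-330+CS than with DMSO by a log2 fold change of 0.86 ± 0.07.

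Most of the 10 genes were lower in cells given both drugs. Against DMSO, 9 of the 10 genes fell with KPT-330+CS and 1, the transporter gene SLC2A3, rose, with a median log2 fold change of -0.58 over the 10 genes and 0.04 over all tested genes. Over all tested genes 26.2% were called lower and 29.3% higher in that comparison. In 8 of the 10 genes the libraries of the groups did not overlap, as in 56.7% of all tested genes. With KPT-330 alone 3 genes fell (HK2, PGK1 and LDHA), 1 rose (SLC2A3) and 6 did not pass, where 23.8% of all tested genes were lower and 24.7% higher; the median of the 10 was -0.05, and the libraries of 4 genes did not overlap, as in 57.7% of all. With CS alone the counts were again 3 lower, 1 higher and 6 not called, by the same genes, where 5.13% of all tested genes were lower and 3.76% higher; the median of the 10 was -0.23, and the libraries of 4 genes did not overlap, as in 22.7% of all. The 3 comparisons share the DMSO libraries, so their values are given side by side and are not independent. Differences are edgeR log2 fold changes ± SE, called where the quasi-likelihood test gave an adjusted p (Benjamini-Hochberg, all tested genes) of at most 0.05. In bulk RNA such as this, fewer cells of a type and less RNA per cell cannot be told apart. The count of 9 lower genes depended on how libraries were scaled: by library size alone, which moved the median of all genes up by 0.18, HK2, PGK1, ENO1 and LDHA were called lower and SLC2A3 higher.

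**Figure D1:**
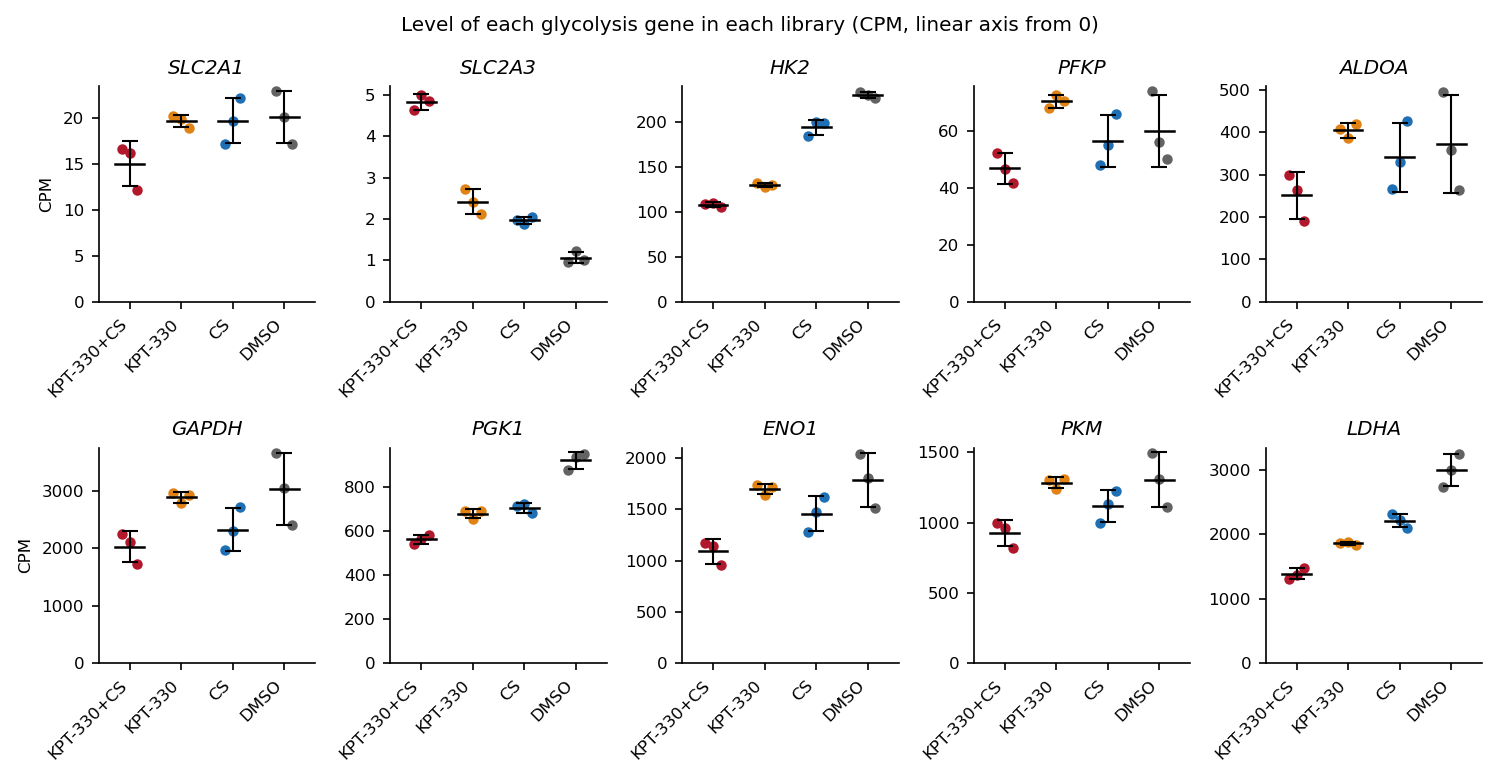
CPM (counts scaled to a common library size by TMM) of each of the 10 genes in each library, on linear axes from 0; points are libraries, long bars the mean of 3 and whiskers the SD, with the groups KPT-330+CS, KPT-330, CS and DMSO from left to right. HK2, PGK1 and LDHA show little scatter within groups and lie lower in all 3 treatments than in DMSO, SLC2A3 lies higher, and ALDOA and GAPDH scatter widely in DMSO, GAPDH between 2399 and 3647 CPM.

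**Figure D2:**
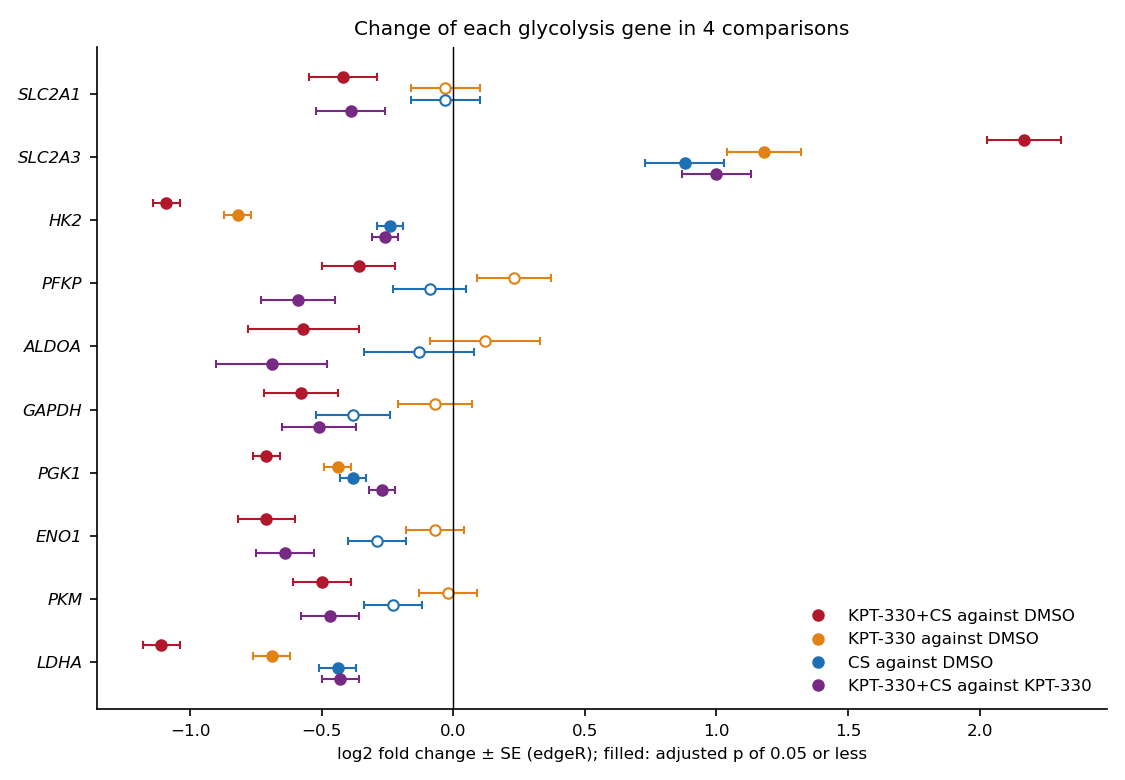
Log2 fold change ± SE by edgeR for the 10 genes, one row per gene, in KPT-330+CS, KPT-330 and CS against DMSO and in KPT-330+CS against KPT-330; filled points have an adjusted p of 0.05 or less. All 10 genes are filled for KPT-330+CS against DMSO, from -1.11 for LDHA to 2.17 for SLC2A3.

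Measured per length, as CPM divided by gene length in kilobases so that different genes can be compared, GAPDH was the most abundant of the 10 in DMSO at 1016 ± 209 CPM per kilobase (SD, n = 3). LDHA (483 ± 40.7) and ENO1 (451 ± 66.3) came next and, at these lengths, did not differ beyond their spread, followed by PGK1 (170 ± 6.98) and PKM (153 ± 22.6), which likewise overlapped. Below them lay ALDOA (60.5 ± 18.7), HK2 (37.8 ± 0.571), PFKP (12.4 ± 2.61) and SLC2A1 (4.77 ± 0.680), and SLC2A3 was lowest at 0.174 ± 0.0221. These levels rest on the gene lengths in the deposited table, and exon lengths of a later annotation moved 7 of them by more than their SD. GAPDH at 1264 and SLC2A3 at 0.147 were still the highest and the lowest, while ENO1 at 343 ± 50.3 then lay below LDHA, which moved by less than its SD. As a share of all counts the 10 genes together took 0.679% ± 0.0574 in KPT-330+CS, 0.940% ± 0.0188 in KPT-330, 0.820% ± 0.0662 in CS and 1.00% ± 0.110 in DMSO (SD, n = 3 each). In KPT-330+CS the 3 libraries stood at 0.724%, 0.699% and 0.615%, below every DMSO library (1.11%, 0.997% and 0.891%).

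The transporter genes behaved in opposite ways. SLC2A1 encodes GLUT1, the common basal glucose transporter of many cell types (ENSG00000117394, chromosome 1, 42925381 to 42958859 of hg38). Its level was 16.6, 16.2 and 12.2 CPM in the 3 KPT-330+CS libraries, 20.2, 19.9 and 18.9 in KPT-330, 17.2, 19.7 and 22.1 in CS, and 22.9, 20.1 and 17.2 CPM in DMSO. The combination libraries lay below all others, and the 3 other groups overlapped. The log2 fold change was -0.42 ± 0.13 for KPT-330+CS against DMSO (adjusted p = 0.016 by edgeR), and -0.03 ± 0.13 for each single drug, neither of them called. Without DMSO replicate 1 the combination's value was -0.32 (adjusted p = 0.0617 by edgeR) and without KPT-330+CS replicate 3 it was -0.29 (adjusted p = 0.0696).

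SLC2A3 encodes GLUT3, a transporter of high affinity for glucose that is known from neurons and activated immune cells (ENSG00000059804, chromosome 12, 7919230 to 7936275). It stood at 4.63, 4.99 and 4.86 CPM in KPT-330+CS, 2.72, 2.42 and 2.12 in KPT-330, 1.98, 1.88 and 2.04 in CS, and 0.965, 1.22 and 1.02 CPM in DMSO. No library of a treatment overlapped with DMSO, and the combination lay above both single drugs. SLC2A3 rose by 2.17 ± 0.14 with KPT-330+CS (adjusted p = 2.74e-08 by edgeR, a 4.52-fold higher level), by 1.18 ± 0.14 with KPT-330 and by 0.88 ± 0.15 with CS, and with the combination it was the only one of the 10 genes past the study's own limit of a log2 fold change over 2, as were 4.36% of all tested genes. These are small numbers of reads: 187 to 275 per library in KPT-330+CS, 121 to 143 in KPT-330, 86 to 119 in CS and 42 to 50 in DMSO. Even at its highest, SLC2A3 reached 0.783 CPM per kilobase, against 3.57 for SLC2A1 in the same group.

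SLC2A3 also has a processed pseudogene with far more reads. SLC2A3P1 (chromosome 5, 168552277 to 168553727) lies within the span of the pantothenate kinase gene PANK3 and had 1059 to 2186 reads per library, and all 4 copies of SLC2A3 in the table together had 567% to 3829% of the reads of SLC2A3. The log2 fold change of SLC2A3P1 was -0.24 ± 0.10 with KPT-330+CS (adjusted p = 0.0531 by edgeR), -0.62 ± 0.10 with KPT-330 and 0.21 ± 0.10 with CS, beside -0.27 ± 0.08, -0.67 ± 0.08 and 0.10 ± 0.08 for PANK3. How far reads were split between SLC2A3 and its copies was not tested. The close paralog SLC2A14 had at most 4 reads in any library. For the other 9 genes, copies held at most 0.589% of the gene's own reads, the highest being HK2, and for GAPDH, with 61 copies in the table, at most 0.433%.

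HK2 encodes hexokinase 2, the inducible enzyme that phosphorylates glucose at the mitochondrial surface (ENSG00000159399, chromosome 2, 74833981 to 74893359). Its level was 108, 110 and 105 CPM in KPT-330+CS, 132, 127 and 130 in KPT-330, 184, 199 and 198 in CS, and 233, 229 and 226 CPM in DMSO. The 4 groups formed separate steps with no overlap, lowest in the combination. HK2 fell by 1.09 ± 0.05 with KPT-330+CS (adjusted p = 9.92e-10 by edgeR), by 0.82 ± 0.05 with KPT-330 (adjusted p = 2.67e-08) and by 0.24 ± 0.05 with CS (adjusted p = 0.00712). The CS value was not called with only the CS and DMSO libraries in the fit (-0.21, adjusted p = 0.13). An overlapping clone-named gene on the other strand held 12.6% as many reads as HK2, and the libraries do not mark strand.

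PFKP encodes the platelet form of phosphofructokinase, the committed step (ENSG00000067057, chromosome 10, 3066333 to 3137712), and ALDOA encodes aldolase A, which splits fructose bisphosphate (ENSG00000149925, chromosome 16, 30053090 to 30070457). PFKP had 52.3, 46.7 and 41.7 CPM in KPT-330+CS, 68.2, 72.9 and 70.5 in KPT-330, 48.0, 55.1 and 66.2 in CS, and 74.3, 56.1 and 50.1 CPM in DMSO. ALDOA had 300, 263 and 191 CPM in KPT-330+CS, 408, 386 and 420 in KPT-330, 266, 330 and 426 in CS, and 494, 359 and 264 CPM in DMSO. Both overlapped between the combination and DMSO, with 1 high DMSO library each, replicate 1, and both lay apart between the combination and KPT-330. Against DMSO the combination's log2 fold change was -0.36 ± 0.14 for PFKP (adjusted p = 0.041 by edgeR) and -0.57 ± 0.21 for ALDOA (adjusted p = 0.0373), and neither single drug was called. Without DMSO replicate 1 the values were -0.18 for PFKP (adjusted p = 0.244 by edgeR) and -0.31 for ALDOA (adjusted p = 0.267), and PFKP was called higher with KPT-330 (0.41, adjusted p = 0.0209). Over all settings tried, the call of the combination was lost in 13 of 23 alternatives for PFKP and in 11 for ALDOA. An overlapping clone-named gene held 7.81% as many reads as PFKP.

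GAPDH, the NADH-yielding dehydrogenase step and a common reference gene in expression assays (ENSG00000111640, chromosome 12, 6533927 to 6538374), had 2240, 2102 and 1722 CPM in KPT-330+CS, 2959, 2780 and 2919 in KPT-330, 1963, 2296 and 2710 in CS, and 3647, 3038 and 2399 CPM in DMSO. The combination lay below all DMSO and KPT-330 libraries and overlapped with CS. It fell by 0.58 ± 0.14 with KPT-330+CS against DMSO (adjusted p = 0.0037 by edgeR), a 1.5-fold lower level, and stood at -0.07 ± 0.14 with KPT-330 (0.09 by library size alone or without DMSO replicate 1) and -0.38 ± 0.14 with CS, neither of them called.

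PGK1 encodes phosphoglycerate kinase, the first step that yields ATP (ENSG00000102144, chromosome X, 78065188 to 78129296). It had 540, 562 and 579 CPM in KPT-330+CS, 689, 653 and 689 in KPT-330, 711, 723 and 678 in CS, and 875, 932 and 947 CPM in DMSO. DMSO was highest and the combination lowest, both apart from the single drugs, which overlapped. PGK1 fell by 0.71 ± 0.05 with KPT-330+CS (adjusted p = 1.11e-07 by edgeR), by 0.44 ± 0.05 with KPT-330 and by 0.38 ± 0.05 with CS (adjusted p = 0.000787).

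ENO1 encodes enolase 1, which makes phosphoenolpyruvate (ENSG00000074800, chromosome 1, 8861002 to 8879249), and PKM encodes the pyruvate kinase of most tissues (ENSG00000067225, chromosome 15, 72199029 to 72231822). ENO1 had 1173, 1143 and 955 CPM in KPT-330+CS, 1736, 1643 and 1718 in KPT-330, 1281, 1474 and 1619 in CS, and 2037, 1808 and 1514 CPM in DMSO. PKM had 996, 961 and 822 CPM in KPT-330+CS, 1306, 1243 and 1308 in KPT-330, 995, 1134 and 1225 in CS, and 1498, 1314 and 1110 CPM in DMSO. For both genes the combination lay below every KPT-330 and DMSO library. ENO1 fell by 0.71 ± 0.11 (adjusted p = 0.000105 by edgeR) and PKM by 0.50 ± 0.11 (adjusted p = 0.00131) with KPT-330+CS. The single drugs gave -0.07 ± 0.11 (KPT-330) and -0.29 ± 0.11 (CS) for ENO1, and -0.02 ± 0.11 (KPT-330) and -0.23 ± 0.11 (CS) for PKM, none of them called. The PKM1 and PKM2 forms that splicing makes from PKM are not told apart in gene counts.

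LDHA encodes the lactate dehydrogenase subunit that favours making lactate from pyruvate (ENSG00000134333, chromosome 11, 18394388 to 18408425). It had 1308, 1370 and 1476 CPM in KPT-330+CS, 1866, 1884 and 1836 in KPT-330, 2311, 2219 and 2105 in CS, and 2740, 3004 and 3245 CPM in DMSO. As with HK2, the 4 groups did not overlap and their order was combination, KPT-330, CS and DMSO. LDHA fell by 1.11 ± 0.07 with KPT-330+CS (adjusted p = 2.05e-08 by edgeR), a 2.16-fold lower level and a fall within the errors of that of HK2. It fell by 0.69 ± 0.07 with KPT-330 and by 0.44 ± 0.07 with CS (adjusted p = 0.00187). The CS value was not called with only the CS and DMSO libraries in the fit (-0.41, adjusted p = 0.054).

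HK2, PGK1 and LDHA, the 3 genes called lower in all 3 comparisons with DMSO, are shown by a promoter window each because they moved together. HK2 and LDHA have 2 windows each, and the one printed was picked because it holds CACGTG. The HK2 gene as deposited begins at 74833981, which lies in the HK2 window that is not printed. The printed HK2 window thus belongs to a start inside the gene. For LDHA the printed window holds the deposited start, 18394388. The windows run from 250 bases before to 50 after a transcription start, as RefSeq gives them for GRCh38.p14, and lie at chr2:74834920-74835219, chrX:78103998-78104297 and chr11:18394313-18394612, each on the plus strand. Capitals mark exact matches, on either strand, to ACGTG, the core of the hypoxia response element that HIF1 is known to bind, and to CACGTG, an E-box that MYC is known to bind; each CACGTG also holds an ACGTG.
HK2: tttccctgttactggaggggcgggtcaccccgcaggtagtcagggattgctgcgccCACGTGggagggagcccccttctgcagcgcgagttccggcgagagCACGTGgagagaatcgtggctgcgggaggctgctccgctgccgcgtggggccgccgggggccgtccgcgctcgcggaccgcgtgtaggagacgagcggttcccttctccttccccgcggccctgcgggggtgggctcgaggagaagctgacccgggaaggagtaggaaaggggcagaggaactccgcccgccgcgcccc
PGK1: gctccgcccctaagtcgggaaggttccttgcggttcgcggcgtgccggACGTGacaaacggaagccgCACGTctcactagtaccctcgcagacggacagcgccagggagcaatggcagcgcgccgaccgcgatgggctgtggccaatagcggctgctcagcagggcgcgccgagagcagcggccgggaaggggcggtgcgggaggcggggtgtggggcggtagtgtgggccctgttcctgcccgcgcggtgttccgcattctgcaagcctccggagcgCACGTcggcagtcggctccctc
LDHA: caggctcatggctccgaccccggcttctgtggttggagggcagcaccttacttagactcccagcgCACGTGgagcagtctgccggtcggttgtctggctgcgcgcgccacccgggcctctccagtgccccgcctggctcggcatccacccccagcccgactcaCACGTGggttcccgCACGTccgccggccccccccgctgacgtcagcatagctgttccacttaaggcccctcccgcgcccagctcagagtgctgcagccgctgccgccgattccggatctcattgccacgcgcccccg
The HK2 window printed held 2 places with ACGTG, each of them a CACGTG, and the other HK2 window held 2 with no CACGTG. The PGK1 window held 3 places and no CACGTG, and the LDHA window printed held 3, of which 2 were CACGTG, while the other LDHA window held none. RefSeq had 16 windows for 9 of the 10 genes, and 4 of these (25.0%) held CACGTG and 9 (56.2%) ACGTG. Of the 14972 windows of tested genes 9.3% held CACGTG and 25.2% ACGTG, and of all 35116 windows 7.3% and 21.4%. The matches are letters in a window and say nothing of binding in these cells. Among the 6 genes called lower with the combination and not with the single drugs, SLC2A1, ENO1 and PKM had 1 window each with no match, GAPDH had 1 window with a CACGTG, ALDOA had ACGTG in each of 3 windows, 1 of them a CACGTG, and PFKP had ACGTG in 1 of 4.

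What CS did in cells that also had KPT-330 was read from KPT-330+CS against KPT-330. Here 9 of the 10 genes fell and SLC2A3 rose, with a median of -0.45 over the 10 and 0.00 over all tested genes, of which 17.9% were lower and 19.7% higher. In all 10 genes the libraries did not overlap, as in 57.1% of all tested genes. The lowest estimates were those of ALDOA (-0.69 ± 0.21, adjusted p = 0.0225 by edgeR), ENO1 (-0.64 ± 0.11, adjusted p = 0.000607) and PFKP (-0.59 ± 0.14, adjusted p = 0.00492). GAPDH (-0.51 ± 0.14), PKM (-0.47 ± 0.11), LDHA (-0.43 ± 0.07), SLC2A1 (-0.39 ± 0.13), PGK1 (-0.27 ± 0.05) and HK2 (-0.26 ± 0.05) fell too, and SLC2A3 rose by 1.00 ± 0.13. Without KPT-330+CS replicate 3, SLC2A1 (-0.26, adjusted p = 0.141), ALDOA (-0.52, adjusted p = 0.0913) and GAPDH (-0.41, adjusted p = 0.0579) were not called by edgeR. SLC2A1 was also lost without any 1 KPT-330 library (-0.42 to -0.37, adjusted p 0.0596 to 0.09), and ALDOA without KPT-330 replicate 1 or 3, CS replicate 2 or KPT-330+CS replicate 2 (-0.72 to -0.66, adjusted p 0.0506 to 0.0644). Library size alone lost SLC2A1 and ALDOA, and no filter lost ALDOA and GAPDH. ALDOA was also lost without the libraries of the lowest GC slope, in 8 of 23 alternatives in all. With counts corrected for GC content all 10 genes kept their calls. ALDOA then stood at -0.62, ENO1 at -0.61, LDHA at -0.55, PFKP at -0.51, PGK1 at -0.39 and GAPDH at -0.33.

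The reverse question, what KPT-330 did in cells that had CS, gave 6 lower and 1 higher, where 21.7% of all tested genes were lower and 26.1% higher. The libraries of 6 genes did not overlap, as in 54.1% of all. HK2 (-0.84 ± 0.05) and LDHA (-0.68 ± 0.07) fell most, then ENO1, SLC2A1, PGK1 and PKM between -0.42 and -0.27, and SLC2A3 rose by 1.29 ± 0.13. PFKP (-0.27 ± 0.14), ALDOA (-0.44 ± 0.21) and GAPDH (-0.20 ± 0.14) were not called. With counts corrected for GC content these 3 were called too, at -0.35 (adjusted p = 0.00238 by edgeR), -0.52 (adjusted p = 0.0375) and -0.32 (adjusted p = 3.97e-08), which made 9 lower. PKM, whose libraries overlapped, lost its call in 12 of 23 settings, and SLC2A1 lost it without CS replicate 2 or 3 or KPT-330+CS replicate 3 (-0.39 to -0.26). Without CS replicate 1, PFKP (-0.37) and ALDOA (-0.59) were called lower. Between the single drugs, CS against KPT-330 left HK2 (0.58 ± 0.05, adjusted p = 8.86e-07 by edgeR) and LDHA (0.25 ± 0.07, adjusted p = 0.0104) higher with CS and the other 8 not called, where 20.2% of all tested genes were higher and 22.6% lower. The libraries of 7 genes did not overlap, as in 58.9% of all. Without CS replicate 3, GAPDH (-0.42, adjusted p = 0.0344) and PFKP (-0.43, adjusted p = 0.0241) were called lower with CS, as was PFKP without DMSO replicate 1 (-0.32).

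Whether the effect of CS differed with and without KPT-330 was tested by the interaction of the drugs. None of the 10 genes was called by edgeR, against 8.04% of all tested genes higher and 6.62% lower, and 2 had an unadjusted p under 0.05: PFKP at -0.49 ± 0.20 (adjusted p = 0.111) and ENO1 at -0.35 ± 0.16 (adjusted p = 0.158). DESeq2, limma voom and the likelihood ratio test of edgeR called 0 of the 10 as well. Without DMSO replicate 1 PFKP was called (-0.68, adjusted p = 0.0174 by edgeR). For HK2, PGK1 and LDHA, whose SE was smallest, the interaction was -0.02 ± 0.07, 0.11 ± 0.07 and 0.01 ± 0.10, so that the combination's log2 change lay within 0.11 of the sum of the single drugs' changes. For ALDOA it was -0.56 ± 0.30, a wide range. A p that misses the threshold does not show that the effects add up. With counts corrected for GC content PFKP (-0.40, adjusted p = 0.0208) and LDHA (-0.13, adjusted p = 0.00258) were called.

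The scatter of several genes moved with the GC slope of the library. SLC2A1, PFKP, ALDOA, GAPDH, ENO1 and PKM have a GC content of 52.7% to 57.6% in their longest transcript. In each of KPT-330+CS, CS and DMSO these 6 were higher in the library of the highest slope than in that of the lowest, by 1.21-fold (PKM in KPT-330+CS) to 1.87-fold (ALDOA in DMSO). PGK1 (42.8%) and LDHA (41.8%) went the other way, at 0.844 to 0.954 of the level, while HK2 (50.5%) stood at 1.03 to 1.07. In KPT-330, whose 3 libraries had the highest slopes of all and little scatter in them, these 9 genes stood at 0.948 to 1.09. Slope thus moved with treatment in every comparison with KPT-330.

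With counts corrected for GC content over all libraries, all 10 genes kept their calls in KPT-330+CS against DMSO, and LDHA stood at -1.10, HK2 at -1.15, GAPDH at -0.72, PGK1 at -0.71 and SLC2A3 at 2.15. In KPT-330 against DMSO 5 genes were then lower: GAPDH at -0.39 (adjusted p = 2.47e-09 by edgeR, against -0.07 uncorrected) and PKM at -0.16 (adjusted p = 0.0243) joined HK2, PGK1 and LDHA. In CS against DMSO 6 were lower, with GAPDH at -0.41 (adjusted p = 1.82e-08), ENO1 at -0.31 (adjusted p = 0.014) and PKM at -0.24 (adjusted p = 0.00691) added. Without the library of the lowest slope in KPT-330+CS, CS and DMSO, an alternative chosen after the data were seen, 6 were again lower with CS. The correction also removes any true change that is tied to GC content, and that part was not tested. In KPT-330 against DMSO it lowered the SE of GAPDH from 0.14 to 0.03 and of LDHA from 0.07 to 0.02. The SE of SLC2A3 was 0.14 before and 0.15 after. The share of all tested genes called with GC correction is not given here, so the corrected counts cannot be set against it.

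**Figure D3:**
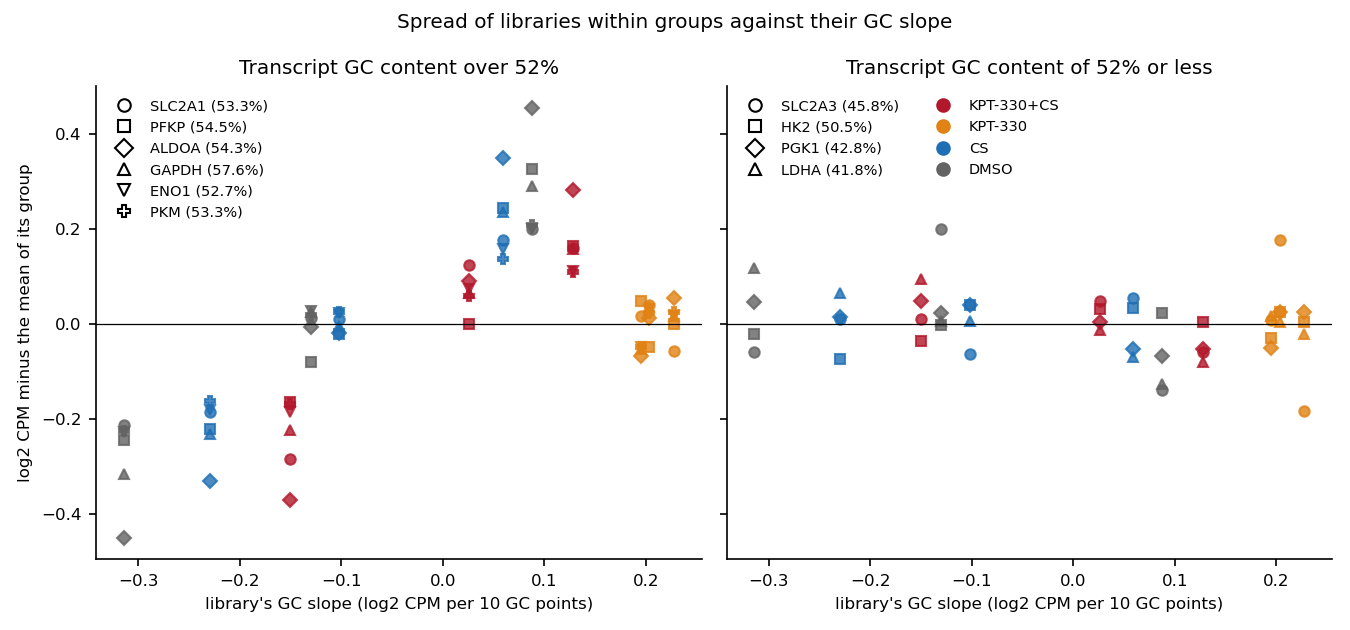
Each point is 1 gene in 1 library: the horizontal axis is the library's GC slope (log2 CPM per 10 GC points), the vertical axis its log2 CPM minus the mean of its group; colours are the groups and shapes the genes, with GC content in brackets. In the left panel the 6 genes of over 52% GC rise with the slope, ALDOA most, with a 1.87-fold difference between DMSO replicates 1 and 3; in the right panel LDHA and PGK1 slope slightly downward.

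Other forms of the same enzymes did not all follow. PFKM, the muscle form of phosphofructokinase, named here after its values were seen, averaged 47.4 ± 1.18 CPM per kilobase in KPT-330+CS, 33.1 ± 1.44 in KPT-330, 24.8 ± 1.11 in CS and 24.5 ± 1.40 in DMSO (SD, n = 3 each), above PFKP in each group. It rose by 0.95 ± 0.06 with the combination (adjusted p = 1.64e-08 by edgeR) and by 0.43 ± 0.06 with KPT-330. ALDOC, the brain form of aldolase, rose by 1.99 ± 0.18 with the combination, to 10.7 ± 0.979 CPM, against 2.68 ± 0.456 CPM in DMSO, where ALDOA averaged 251 ± 55.7 CPM with KPT-330+CS and 372 ± 115 CPM with DMSO. ENO2, the neuronal enolase, with a mean of 6.36 CPM over all libraries, rose by 0.97 ± 0.18 with the combination and 1.42 ± 0.18 with KPT-330. ENO3, the muscle enolase, rose by 1.42 ± 0.16 with KPT-330 and fell by 1.06 ± 0.16 in the combination against KPT-330. LDHB, the subunit that favours using lactate, fell by 0.55 ± 0.08 with the combination and 0.50 ± 0.08 with KPT-330, beside -1.11 ± 0.07 and -0.69 ± 0.07 for LDHA. The fall of LDHB was not tested against that of LDHA. Per length LDHA and LDHB stood at 223 ± 13.7 and 248 ± 20.1 in KPT-330+CS, against 483 ± 40.7 and 363 ± 38.4 in DMSO. In KPT-330+CS the SDs of LDHA and LDHB overlapped, and the difference between them was not tested.

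**Figure D4:**
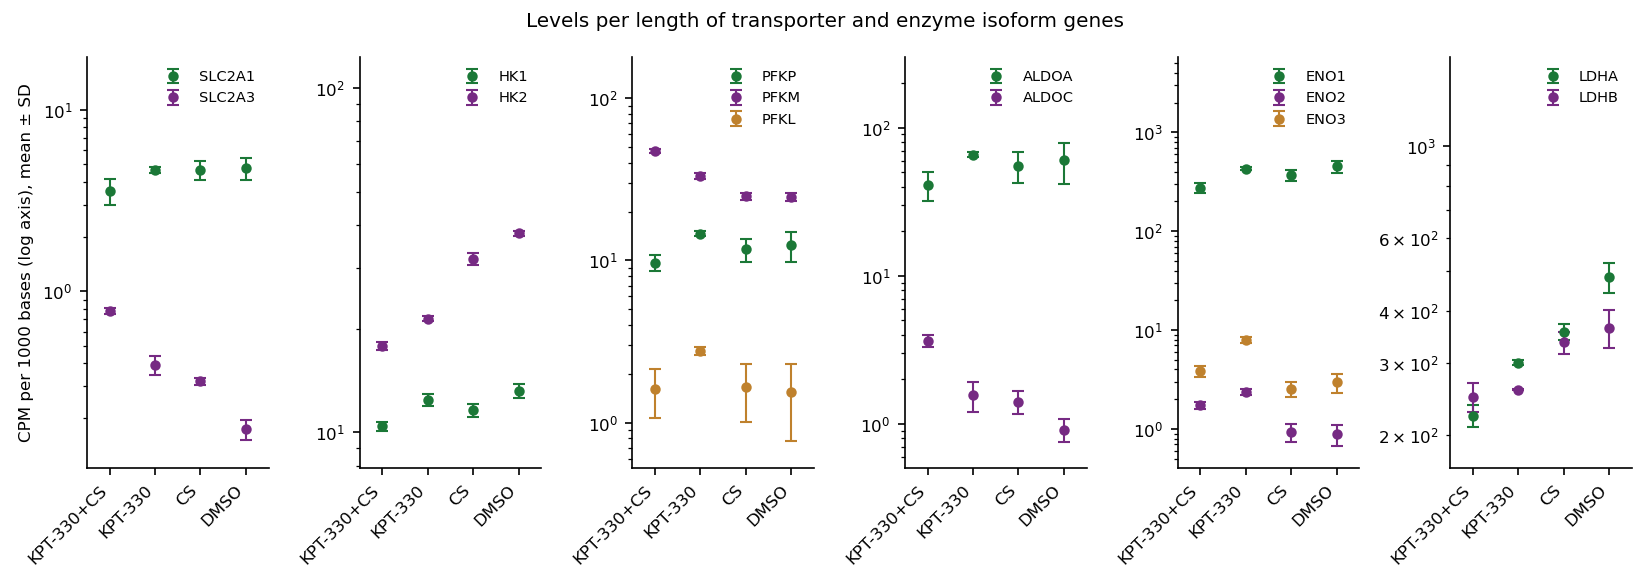
CPM per kilobase (log axes, mean ± SD of 3 libraries) of transporter and isozyme genes in KPT-330+CS, KPT-330, CS and DMSO, one panel per step. PFKM lies above PFKP in every group and rises to 47.4 with the combination, and LDHA drops to 223 and lies by LDHB, which stands at 248.

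Of the 12 other glycolysis enzyme genes tested, 5 fell and 3 rose with the combination, with a median of -0.04. Of all tested genes 26.2% were lower and 29.3% higher in that comparison. PGAM1, the phosphoglycerate mutase between PGK1 and the enolases, fell by 1.08 ± 0.05 with KPT-330+CS (adjusted p = 1.21e-09 by edgeR), by 0.72 ± 0.05 with KPT-330 and by 0.38 ± 0.05 with CS. GPI, which makes fructose 6-phosphate, fell by 0.86 ± 0.14 and the triose phosphate isomerase gene TPI1 by 0.51 ± 0.14 with the combination, and neither was called with KPT-330 or with CS. TPI1 was not called without DMSO replicate 1 (-0.37, adjusted p = 0.0549), by library size alone or with no filter. Over 23 alternatives it ran from -0.65 to -0.32, with an edgeR adjusted p of up to 0.115. HK1, the constitutive hexokinase, fell by 0.34 ± 0.06 with the combination.

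The same shares of all tested genes, 26.2% lower and 29.3% higher with the combination, apply to the short lists that follow. Of 6 tested genes that control the fructose bisphosphate step 1 fell and 0 rose with the combination. The one that fell was TIGAR, listed under its older name C12orf5, a phosphatase that lowers fructose 2,6-bisphosphate. C12orf5 fell by 1.81 ± 0.06 with KPT-330+CS, to 20.8 ± 0.664 CPM against 73.1 ± 2.73 CPM in DMSO, by 1.32 ± 0.06 with KPT-330 and by 0.39 ± 0.05 with CS. PFKFB3, the kinase that makes that activator, stood at -0.04 ± 0.08. Among 7 other glucose transporter genes 3 fell and 1 rose: SLC2A6 fell by 1.77 ± 0.25 and the fructose transporter gene SLC2A5 by 0.95 ± 0.05, after a larger fall with KPT-330 alone (-1.44 ± 0.05). Of 5 genes of lactate and proton export 2 fell, among them SLC16A1, which encodes the monocarboxylate transporter MCT1 (-0.39 ± 0.07).

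Genes of downstream and side routes are to be read against the 26.2% of all tested genes lower and 29.3% higher with the combination. For KPT-330 alone these shares were 23.8% lower and 24.7% higher, and for CS alone 5.13% and 3.76%. Of 16 tricarboxylic acid cycle genes 12 fell and 0 rose with the combination (median -0.52), with IDH3A, a subunit of isocitrate dehydrogenase, at -1.11 ± 0.05 and the fumarase gene FH at -0.99 ± 0.07; with KPT-330 11 fell and 1 rose, and with CS 7 fell and 0 rose. Of 13 genes for the entry of pyruvate into mitochondria 7 fell and 1 rose, with the pyruvate carrier gene MPC1 at -1.07 ± 0.08, DLAT of the pyruvate dehydrogenase complex at -0.63 ± 0.06 and the inhibitory kinase gene PDK2 at 0.78 ± 0.19. Of 9 pentose phosphate genes 5 fell and 2 rose. TALDO1 at -1.19 ± 0.17 and PGD at -1.03 ± 0.08 were lower. TKTL1 was higher at 1.21 ± 0.12, with a mean of 3.5 CPM over all libraries. Of 5 genes of serine synthesis, which branches off at 3-phosphoglycerate, and of the step between serine and glycine, 2 rose and 0 fell. PHGDH rose by 0.87 ± 0.12 and PSPH by 0.56 ± 0.06, while PSAT1 of the same branch stood at -0.08 ± 0.06. Of 10 glycogen and hexose phosphate genes 3 rose and 3 fell, shares near those of all genes. The phosphorylase gene PYGL stood at 2.25 ± 0.24, with a mean of only 1.02 CPM over all libraries. Over the 104 listed genes outside the 10, common reference genes left out, 39 (combination), 40 (KPT-330) and 21 (CS) were lower than in DMSO and 21, 29 and 5 higher.

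Regulators known to drive glycolysis genes were measured beside them. MYC rose by 1.30 ± 0.08 with KPT-330+CS (adjusted p = 1.2e-08 by edgeR), to 490 ± 30.6 CPM against 200 ± 19.5 CPM in DMSO, and by 0.74 ± 0.08 with KPT-330, while with CS it stood at 0.17 ± 0.08 (adjusted p = 0.196). HIF1A, the oxygen-regulated subunit of HIF1, which is controlled mainly at the protein level, stood at -0.12 ± 0.08 with the combination and -0.04 ± 0.08 with KPT-330, not called. With CS it was at -0.27 ± 0.08 (adjusted p = 0.043), a call that was lost in 13 of 23 alternatives. Of 17 HIF pathway and hypoxia genes 6 rose and 0 fell with the combination. They were led by NDRG1 at 3.21 ± 0.16 (mean of 2.98 CPM over all libraries), ANKRD37 at 1.74 ± 0.14 (4.83 CPM) and MXI1 at 1.03 ± 0.07 (27 CPM). With KPT-330 alone 5 rose and 6 fell, and with CS 1 rose and 6 fell. Of all tested genes 29.3% were higher and 26.2% lower with the combination. The shares were 24.7% and 23.8% with KPT-330, and 3.76% and 5.13% with CS. TXNIP, a glucose-induced arrestin that restrains glucose uptake, rose by 1.29 ± 0.07 with KPT-330+CS (adjusted p = 5.78e-09), by 0.84 ± 0.07 with KPT-330 and by 0.68 ± 0.07 with CS, and its relative ARRDC4 rose by 1.21 ± 0.12 with the combination. Both belong to a list of 4 tested glucose sensing genes, of which 3 rose and 1 fell with the combination.

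**Figure D5:**
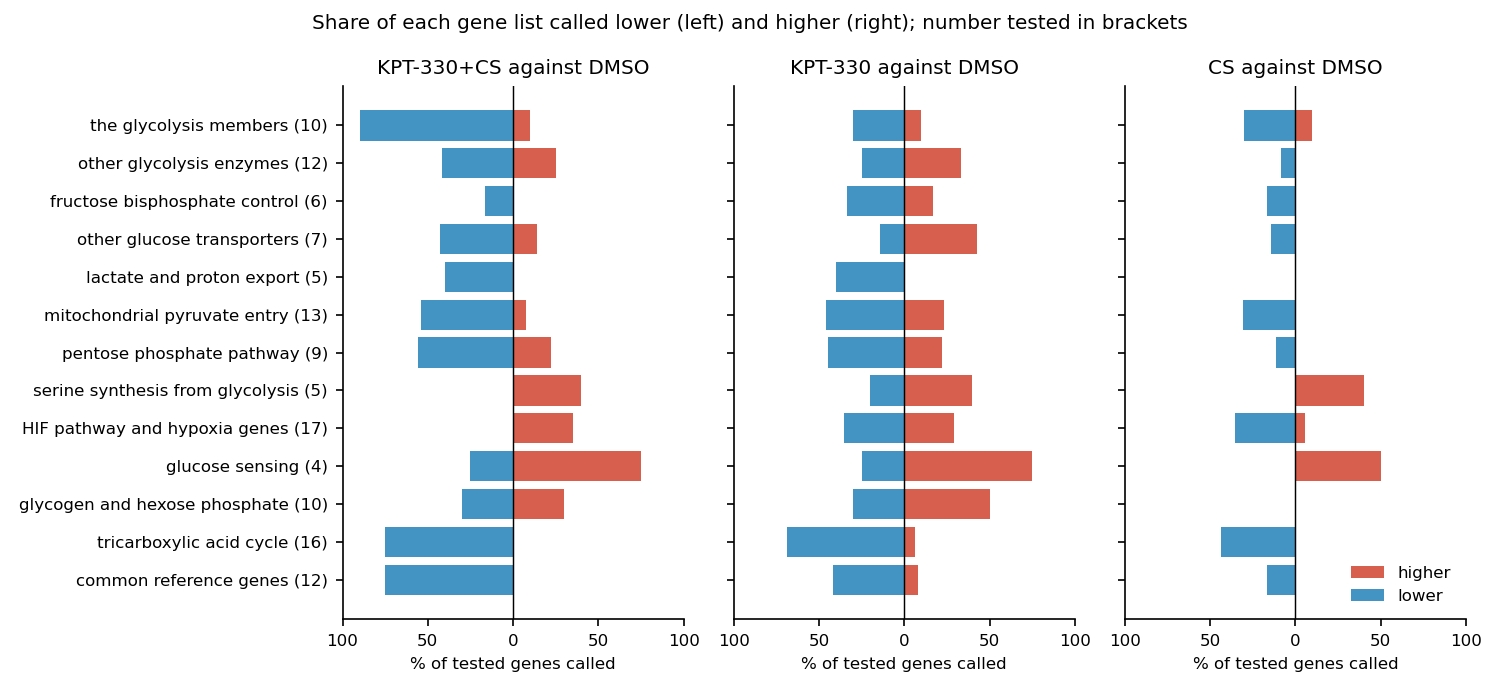
Share of each gene list called lower (bars to the left) and higher (bars to the right) by edgeR, in percent of the genes tested, in KPT-330+CS, KPT-330 and CS against DMSO, with the number tested in brackets. The 10 glycolysis genes have 9 lower with the combination and 3 with each single drug, and the tricarboxylic acid cycle has 12 of 16 lower with the combination. Of all tested genes 26.2% were lower with KPT-330+CS, 23.8% with KPT-330 and 5.13% with CS.

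Glycolysis genes such as GAPDH are often used to scale expression assays. Of 12 common reference genes 9 fell and 0 rose with the combination (median -0.52), among them ACTB, cytoplasmic actin, at -0.67 ± 0.16 (-0.49 and not called, with an edgeR adjusted p of 0.0525, when TMM scaling was left out) and PPIA, cyclophilin A, at -0.63 ± 0.05, while the ribosomal protein gene RPLP0 stood at 0.06 ± 0.12 and B2M, the light chain of MHC class I molecules, at -0.01 ± 0.06. Of all tested genes 26.2% were lower and 29.3% higher with the combination, and library size alone moved their median up by 0.18. With KPT-330 alone 5 of the reference genes fell and 1 rose, where 23.8% of all tested genes were lower and 24.7% higher. GAPDH stood at -0.07 ± 0.14 and ACTB at 0.23 ± 0.16 with KPT-330, neither called. With counts corrected for GC content GAPDH stood at -0.39 with KPT-330 and was called lower.

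Across the 12 libraries the 10 genes were compared by likeness of their log2 CPM, given here as Pearson r with no test, since the libraries share treatments and GC slopes. ENO1, PKM, GAPDH, ALDOA, PFKP and SLC2A1, the genes of highest GC content, had their nearest among themselves. So did HK2, PGK1 and LDHA. Likeness from treatment and likeness from GC slope were not separated. LDHA was most like PGK1 (r = 0.979) and, outside the 10, like FKBP5 (0.998). HK2 was most like LDHA (0.940) and outside like PSMD13 (0.997). ENO1 and PKM were nearest to each other (0.990), GAPDH to PKM (0.980), ALDOA and PFKP to each other (0.955) and SLC2A1 to ALDOA (0.936). Outside the 10, GAPDH was nearest to TPI1 (0.991) and ENO1 to EIF4G1 (0.998). SLC2A3 ran against all others, with r of -0.426 to its nearest (PFKP) and -0.967 to LDHA, and was most like NICN1 (0.992).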

How the data were processed

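The authors deposited whole-number counts for 64253 genes in 12 libraries. Per the series design text they come from STAR alignments to hg38 with Ensembl version 78 genes, from RNA taken with a kit for fixed tissue; the kit named for the libraries does not mark strand. The sources do not say how reads shared by gene copies were counted, or whether the 3 libraries of a group were separate cultures, so a p-value reflects only library-to-library spread, possibly technical.

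The tests used edgeR 4.0.16 (R 4.3.3): filterByExpr, TMM scaling, 1 robust quasi-likelihood fit of all 12 libraries by group (8 residual degrees of freedom), two-sided, with Benjamini-Hochberg adjustment over 19460 genes. SE is the size of the log2 fold change over the square root of F. The procedure was tested on simulated counts with the same spread in every group and no GC trend. That test therefore does not cover the differences in scatter and GC slope between these groups. CPM uses TMM-scaled library sizes, and levels per length use the gene lengths deposited beside the counts. Likeness used log2 CPM with a prior count of 2 and genes of at least 5 CPM. GC content, of the longest transcript in GENCODE 44, was known for 97% of tested genes. Alternatives were DESeq2 1.42.0, limma 3.58.1 voom, the likelihood ratio test, other scalings and filters, the replicate block, only the groups compared, each library left out, and GC correction (lowess, span 0.3).

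The 10 genes, the lists and the tests were chosen with earlier results of these data known. From each list and comparison the rule took up to 3 called genes by size of change and 1 not called, of at least 1 CPM, and always XPO1, MYC, HIF1A and TXNIP; not all are printed. HK1, PFKM, B2M, SLC2A3P1 and PANK3 fall outside it and were chosen after their values were seen.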

Additional observations from a re-analysis of the deposited data

Results flagged for a closer look

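Of the 104 listed genes outside the 10 glycolysis genes, common reference genes left out, 18 had a higher and 8 a lower effect of CS in the presence of KPT-330 than in its absence, as called by the interaction test of edgeR, and 9 of these are named here with MYC, which is on none of the lists. Of all tested genes 8.04% had a higher and 6.62% a lower interaction by that test. Among isozyme and transporter genes the log2 interaction was 0.51 ± 0.08 for PFKM, -0.84 ± 0.23 for ENO3 and 0.74 ± 0.07 for SLC2A5. It was 0.95 ± 0.18 for the transketolase-like gene TKTL1. Among HIF pathway and hypoxia genes it was 1.55 ± 0.15 for DDIT4, 1.50 ± 0.20 for ANKRD37, 0.87 ± 0.18 for VEGFA, 0.67 ± 0.10 for KDM3A and 0.61 ± 0.10 for MXI1. Over that list 10 of 17 genes were called higher and 0 lower. MYC stood at 0.38 ± 0.11. A higher interaction is not a higher level than in DMSO. VEGFA was -1.13 with KPT-330, 0.44 with CS and 0.19 (not called) with the combination. KDM3A was -0.20, -0.49 and -0.03 (not called). How these interactions moved under the alternatives, GC correction included, is not given here.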

How the results depend on the processing

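In KPT-330+CS and in KPT-330 against DMSO, SLC2A3, HK2, PGK1 and LDHA kept their calls in all 23 alternatives, as did ENO1 with KPT-330+CS. For the values below the cause was not tested beyond what the alternative itself removes. The share of all tested genes called under each alternative is not given here, so the counts below cannot be set against it. Counts of the 10 genes called lower moved with GC correction to 5 (KPT-330 against DMSO), 6 (CS against DMSO), 1 (CS against KPT-330) and 2 (interaction). In KPT-330+CS against CS it gave 9, against 6 without it. With library size alone they moved to 4 (KPT-330+CS against DMSO), 3 (KPT-330+CS against CS) and 1 (CS against KPT-330). With only the groups compared they were 1 (CS against DMSO) and 4 (CS against KPT-330), and without the libraries of the lowest GC slope, an alternative added after seeing the data, 6 (CS against DMSO). Leaving out each library gave 6 to 9 lower in KPT-330+CS against DMSO, 4 to 8 in KPT-330+CS against CS, 0 to 2 in CS against KPT-330, 0 to 1 in the interaction, and 1 to 2 higher in KPT-330 against DMSO. Of the 104 other listed genes, common reference genes left out, the count lower in KPT-330 against DMSO was 22 with library size alone. In CS against DMSO the count higher was 10 with GC correction, 10 with library size alone, 2 with only the groups compared, 3 with the replicate block and 3 to 6 with a library left out, and the count lower was 37 with GC correction, 5 with only the groups compared and 9 to 27 with a library left out. In KPT-330+CS against KPT-330 the count lower was 49 with GC correction.

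Changes of sign came in values that were not called. In KPT-330 against DMSO, ALDOA stood at -0.04 with GC correction, -0.08 without the libraries of the lowest GC slope and between -0.07 and 0.38 with a library left out. There, library size alone gave 0.13 for SLC2A1, 0.09 for GAPDH, 0.08 for ENO1 and 0.13 for PKM, and only the groups compared gave 0.00 for SLC2A1 and 0.01 for PKM. Leaving out a library gave -0.12 to 0.08 for SLC2A1, -0.20 to 0.09 for GAPDH, -0.17 to 0.03 for ENO1 and -0.12 to 0.08 for PKM, each highest without DMSO replicate 1. In CS against DMSO, SLC2A1 stood at 0.03 with library size alone and 0.00 with only the groups compared, and a library left out gave -0.11 to 0.08 for SLC2A1, -0.21 to 0.09 for PFKP and -0.30 to 0.13 for ALDOA. In CS against KPT-330, PGK1 stood at -0.04 with GC correction and with library size alone, and SLC2A1 at -0.10 with library size alone, -0.00 with no filter, -0.01 with a stricter filter and -0.07 to 0.09 with a library left out. In the interaction, GAPDH stood at 0.08 with GC correction, 0.01 without the libraries of the lowest GC slope and -0.29 to 0.00 with a library left out, and PGK1 at -0.03 with GC correction. LDHA stood there at -0.13 with GC correction, the only one of these that passed the test, -0.03 with library size alone, -0.01 with no filter, -0.07 without the libraries of the lowest GC slope and -0.06 to 0.07 with a library left out. HIF1A in KPT-330+CS against DMSO was 0.07 with library size alone.

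Without the 10 highest genes of the table, the 10 glycolysis genes took 0.749% (KPT-330+CS), 1.01% (KPT-330), 0.889% (CS) and 1.08% (DMSO) of the counts. With exon lengths of GENCODE 44, levels per kilobase in DMSO were 1264 for GAPDH, 343 for ENO1, 97.2 for ALDOA, 38.7 for HK2, 7.74 for PFKP, 3.03 for SLC2A1 and 0.147 for SLC2A3. Same-numbered libraries did not deviate together: over 18 pairs r ran from -0.38 to 0.40 and 2 were over 0.1, so the numbers were not taken to pair the libraries. With the replicate block the lower counts were 3 (KPT-330), 3 (CS) and 7 (KPT-330+CS) against DMSO, where PFKP (-0.36) and ALDOA (-0.56) were no longer called. The depth behind SLC2A3 was 42 to 50 reads per DMSO library.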
